A study of Mus musculus with 10 samples.

Results

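The comparison described here set skin treated with imiquimod and the solvent DMSO against untreated skin, and used 6 of the 10 RNA libraries of the study and all 9820 genes of the table that holds both groups. Imiquimod activates Toll-like receptor signalling and, rubbed onto mouse skin, causes a psoriasis-like inflammation. The treated group (n = 4, called treated libraries 1 to 4 below) received topical imiquimod plus DMSO for 6 days, and the other group (n = 2) was untreated. All mice were c57/Bl6 animals of 6 to 8 weeks, and the sample labels name ear skin for each library. The other 4 libraries, with imiquimod and the sodium channel blocker benzamil, entered only 1 alternative fit. No library had DMSO without imiquimod, so the effects of the drug and of its solvent cannot be told apart. The design text, in contrast to those labels, places the untreated control on the back, and body site and treatment therefore cannot be told apart either. None of the 21 trunk homeobox genes listed as markers of body position was in the table. No label says that the replicates were separate animals, so the p-values measure only the spread between the libraries at hand.

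As background, the living epidermis renews itself from a basal layer that holds Krt5 and Krt14, matures through spinous cells that hold Krt1 and Krt10, and ends in dead, cross-linked cornified cells. Injured or psoriasis-like epidermis switches on stress keratins, small proline-rich proteins, stefins, antimicrobial proteins and cytokines of the IL-36 family, draws in neutrophils and thickens. Skin as sampled also holds dermal fibroblasts and, depending on how deep it is cut, fat and striated muscle. In bulk RNA, fewer cells of a type and less RNA per cell cannot be told apart, and a gene's level is its share of the library's RNA.

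The libraries came from a 3′ messenger RNA kit and were shallow, above all on the untreated side. Untreated libraries 1 and 2 held 74713 and 71230 reads, and the treated libraries 259301 to 935840. Levels below are CPM, that is, reads scaled to a library size of 1000000. A single read was worth 13.9 and 15.3 CPM in untreated libraries 1 and 2 and 1.03 to 3.68 CPM in the treated ones. Where both untreated libraries had 0 reads, the level could be up to 21.9 CPM (3 reads over both libraries, counting error only), and the fold is given as a lower bound against it. With 1 to 3 untreated reads the ratio of reads is given with its 95% exact counting interval. Nuclear and mitochondrial ribosomal RNA took 34.1% and 38.6% of the untreated reads and 22.1% to 28.8% of the treated reads.

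The untreated libraries also differed from each other. In a principal component analysis of 2523 genes, the first component (66.8% of the variance) separated treated from untreated libraries. The second (24.3%) set untreated library 1 apart from untreated library 2, with scores of 28 and -31.9 against -0.866 to 2.04 for the treated libraries. Xist, the RNA of the inactive X chromosome, had 0 reads in untreated library 1 (3 reads would be 41.8 CPM) and 613 CPM in untreated library 2, against 258 to 436 CPM in the treated libraries. The Y-linked gene Ddx3y had 10 reads in untreated library 1 and 0 in the other 5 libraries. The labels give no sex, and the part of this difference in the results was not tested. Each result was therefore also computed without each library in turn.

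Of 5047 genes with enough reads to test, 475 (9.41%) were higher and 434 (8.60%) lower in treated than in untreated skin at an adjusted p under 0.05 (edgeR's quasi-likelihood test, Benjamini-Hochberg). Counts of called list members below are to be read against these 2 shares. The median log2 fold change over all tested genes was 0.18. Only 151 of the 475 and 79 of the 434 kept their call in every fit that left out 1 library, and 19 and 21 were not tested in at least 1 of these fits. Without untreated library 1 the fit called 267 higher and 206 lower genes, and 203 and 154 of the original calls were among them. Without untreated library 2 it called 503 and 322, with 322 and 220 of the original calls. Among the called genes, 474 of 475 were higher in all 4 treated libraries than in both untreated ones, and 420 of 434 were lower in all 4. The same held for 1497 and 968 of all tested genes. The authors' deposited table, which tested 6964 genes, had 324 higher (4.65%) and 361 lower (5.18%) at the same threshold. Of these, 316 and 298 were called in the same direction here and 0 in the opposite one.

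**Figure D1:**
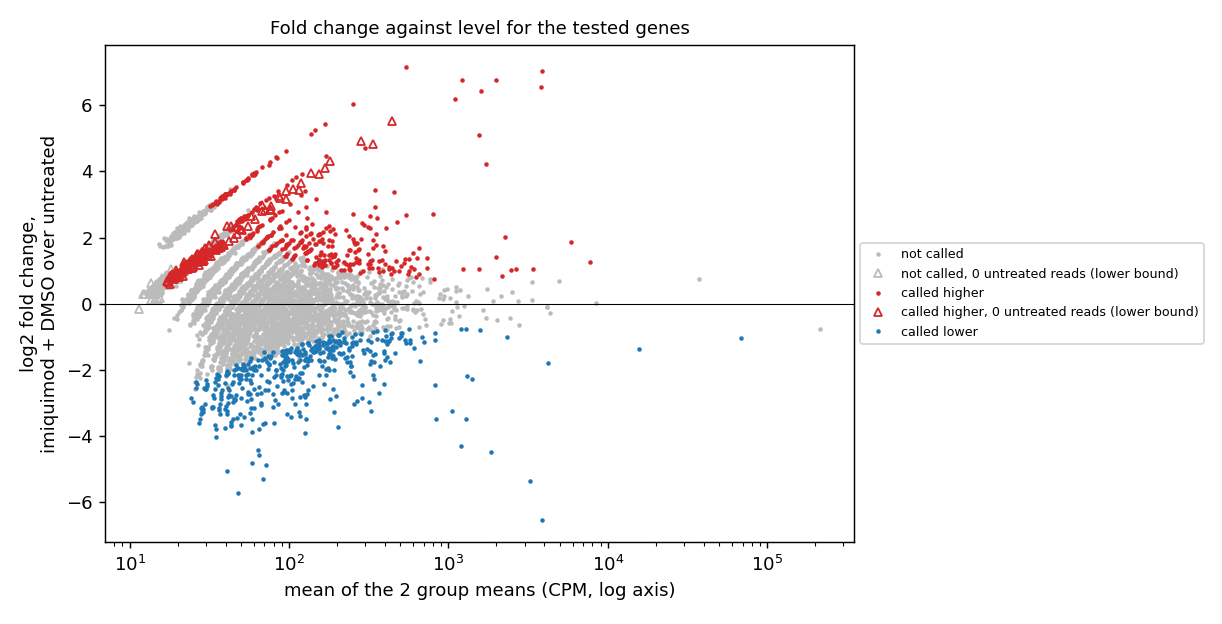
Log2 fold change (treated over untreated, vertical axis) against the mean of the 2 group means in CPM (log axis) for the 5047 tested genes, with called genes in red (higher) and blue (lower). Triangles are the 187 genes with 0 untreated reads, drawn at their lower bound, so their true height is unknown. Rows of points at the left come from genes with few whole reads.

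What could be detected depended on the level of a gene. Of the 1682 tested genes with the lowest levels, 40 were called higher and 174 lower, and of the 1683 with the highest levels 306 and 167. In all, 1785 genes of the table had 0 untreated reads, of which 187 were tested and 124 called higher. A further 120 of the higher genes rested on 1 to 3 untreated reads and 231 on more. The lowest mean level in treated skin at which a gene with 0 untreated reads was called was 34.4 CPM, and one at 46.5 CPM was not called. Such a gene could pass the filter only through the treated group, so its direction was fixed by the choice of tested genes. The same held for any gene below the filter's level (10 reads at the median depth) in both untreated libraries. Of the higher genes named below, those with untreated reads were Krt6b, Sprr2d, Pla2g4e, Klk6, Klk9, Gjb2, Il36a and Tnfaip2. Ier3, Ereg, Tgfa, Rrm1, Gk, Slc5a1 and Plbd1 were others. Conversely, a gene below that level in every treated library passed only through the untreated group, and its fall was fixed. Among the lower genes named below, these were Il7r, Dct, Rgs5, Col11a1, Btc, Il20ra, Col7a1, Pfkm, Fabp4, Meg3 and Zbtb16. Car3, Lgr6 and Mef2c reached that level only in treated library 3, so they too could not pass without the untreated group. Calls of all such genes are no support for their direction, and their part in the 174 was not counted.

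The stress keratins, filament proteins of wounded and hyperproliferating epidermis, were all higher in treated skin. Krt6a (chr15:101689910-101694307, minus strand, mm10) stood at 69.6 and 107 CPM in untreated libraries 1 and 2 and at 3658, 4001, 2466 and 1946 CPM in treated libraries 1 to 4. The groups lay far apart, and treated libraries 3 and 4 were the lower ones. Its log2 fold change was 5.10 ± 0.45 (SE; edgeR adjusted p = 3.66e-08). Krt16 was at 55.7 and 0 CPM in untreated and at 2602, 1964, 2065 and 2022 CPM in treated libraries (log2 fold change 6.20 ± 0.51, edgeR adjusted p = 1.22e-08). Krt6b, a close copy of Krt6a whose reads may be split with it, had 3 untreated reads and reached 971 to 3436 CPM, a ratio of 126 (interval 43.1 to 611). Krt17 was at 0 and 123 CPM in untreated and at 474 to 889 CPM in treated libraries (log2 fold change 3.43 ± 0.55, edgeR adjusted p = 0.000171). All 4 kept their call without each library, and their median log2 fold change was 5.65. Krt6b was below the filter's level in both untreated libraries, so its direction was fixed by the filter and its call is no support for it. The untreated levels of Krt16 and Krt17 each came from a single library. Without untreated library 2 the change of Krt16 was 5.43 and without untreated library 1 that of Krt17 was 2.49, and in the opposite omissions no untreated read remained.

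The small proline-rich (Sprr) proteins, cross-linked precursors of the cornified envelope encoded in a cluster on chromosome 3, had almost no reads in untreated skin. The 11 genes of the family in the table had 4 reads in untreated library 1 and 0 in untreated library 2, and their summed level was 5509, 3961, 3524 and 2103 CPM in treated libraries 1 to 4. Of 10 tested, 9 were higher and all 9 kept their call without each library. Of the 10 tested, 7 had 0 untreated reads, and the others, Sprr2d included, were below the filter's level in both untreated libraries. The direction of all 10 was therefore fixed by the filter, and their calls are no support for it. Sprr1b had 0 untreated reads and 1293, 891, 834 and 505 CPM in treated libraries, at least 46.2-fold higher (edgeR adjusted p = 7.40e-07). Sprr2d had 1 untreated read and 693 to 1422 CPM, a ratio of 164 (interval 29.3 to 6462). Sprr1a and Sprr2h were at least 20-fold and 17.3-fold higher. Treated library 4 was the lowest of the treated group for each of these 4 genes. With genes of 0 untreated reads at their bound, the family's median log2 fold change was 4.03, against 0.18 for all tested genes. Sprr2 genes are near-identical, and the split of reads among them is uncertain.

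Since these genes lie side by side and moved together, the stretch around their start sites is printed for 4 of them, chosen after the values and the matches were seen. It runs from 250 bases before to 50 bases after the start (RefSeq, GRCm38.p6). Capitals mark matches to TGANTCA, the letters bound by AP-1 factors such as Jun and Fos, and to TATAAA, the TATA box letters, each searched on both strands.
Sprr1a: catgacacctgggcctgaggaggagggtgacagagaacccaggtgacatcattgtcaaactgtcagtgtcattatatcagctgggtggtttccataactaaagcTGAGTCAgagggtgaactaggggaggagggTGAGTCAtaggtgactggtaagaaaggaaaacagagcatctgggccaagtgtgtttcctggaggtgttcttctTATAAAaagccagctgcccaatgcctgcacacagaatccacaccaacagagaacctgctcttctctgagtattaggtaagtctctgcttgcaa
Sprr1b: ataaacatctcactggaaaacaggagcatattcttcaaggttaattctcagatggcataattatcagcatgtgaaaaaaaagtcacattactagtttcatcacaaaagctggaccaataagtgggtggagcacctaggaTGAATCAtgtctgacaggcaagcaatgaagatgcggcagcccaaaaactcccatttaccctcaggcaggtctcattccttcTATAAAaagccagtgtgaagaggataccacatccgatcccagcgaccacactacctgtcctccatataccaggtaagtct
Sprr2d: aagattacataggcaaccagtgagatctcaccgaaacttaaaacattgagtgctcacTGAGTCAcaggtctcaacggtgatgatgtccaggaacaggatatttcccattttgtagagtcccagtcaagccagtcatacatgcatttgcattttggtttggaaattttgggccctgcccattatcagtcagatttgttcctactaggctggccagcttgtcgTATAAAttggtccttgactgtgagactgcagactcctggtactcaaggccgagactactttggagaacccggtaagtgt
Sprr2h: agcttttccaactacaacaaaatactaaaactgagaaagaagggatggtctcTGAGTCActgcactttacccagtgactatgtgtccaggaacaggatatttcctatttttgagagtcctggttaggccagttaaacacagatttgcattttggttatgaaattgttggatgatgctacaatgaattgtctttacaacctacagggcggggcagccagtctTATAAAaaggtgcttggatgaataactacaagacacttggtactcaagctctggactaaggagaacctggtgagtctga
The windows are chr3:92485832-92486131 (minus strand) for Sprr1a, chr3:92438730-92439029 (minus) for Sprr1b, chr3:92338890-92339189 (plus) for Sprr2d and chr3:92385435-92385734 (plus) for Sprr2h. AP-1 letters began 146 and 116 bases before the start in Sprr1a, 111 bases before it in Sprr1b, 193 in Sprr2d and 198 in Sprr2h. Of the 9 Sprr genes of the table with a window, 8 held TGANTCA and 8 held TATAAA. Among all 32851 promoter windows the shares were 7.81% and 13.6%. Counted by gene, with any window of the gene, they were 6.86% and 9.74% of the 3993 tested genes with a window. TGANTCA was in the windows of 47 of 379 genes called higher (12.4%), 25 of 326 called lower (7.67%) and 202 of 3288 tested but not called (6.14%). The 47 include Sprr genes whose matches had already been seen. None of the 6 Lce3 genes held TGANTCA in its window. These are matches of letters only, given as a description.

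The stefin A cluster on chromosome 16 encodes small inhibitors of cysteine proteases made in large amounts by inflamed mouse epidermis and by neutrophils. Stfa3 (chr16:36450537-36455392, minus strand) was at 41.8 and 30.6 CPM in untreated libraries and at 2844, 3245, 3124 and 3484 CPM in treated ones. Its untreated values rest on 3 and 2 reads, too few to judge their spread, and its treated values lay close to each other. The log2 fold change was 6.43 ± 0.43 (edgeR adjusted p = 6.79e-10). Cstdc5 was at 69.6 and 0 CPM against 3288 to 4558 CPM (log2 fold change 6.75 ± 0.52, edgeR adjusted p = 4.93e-09), and its untreated reads all came from library 1. Without untreated library 2 it stood at 5.98. Stfa1 had 0 untreated reads and 376 to 833 CPM, at least 30.1-fold higher, while Csta1 rose from 69.6 and 91.9 CPM to between 508 and 863 CPM. All 7 tested members were higher, and 5 kept their call without each library. Of these 7, 4 had 0 untreated reads, so their direction was fixed by the filter and their calls are no support for it. The median log2 fold change of the 7 was 3.47 with 0-read genes at their bound. The copies of this cluster are near-identical, so the split among them is uncertain.

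**Figure D2:**
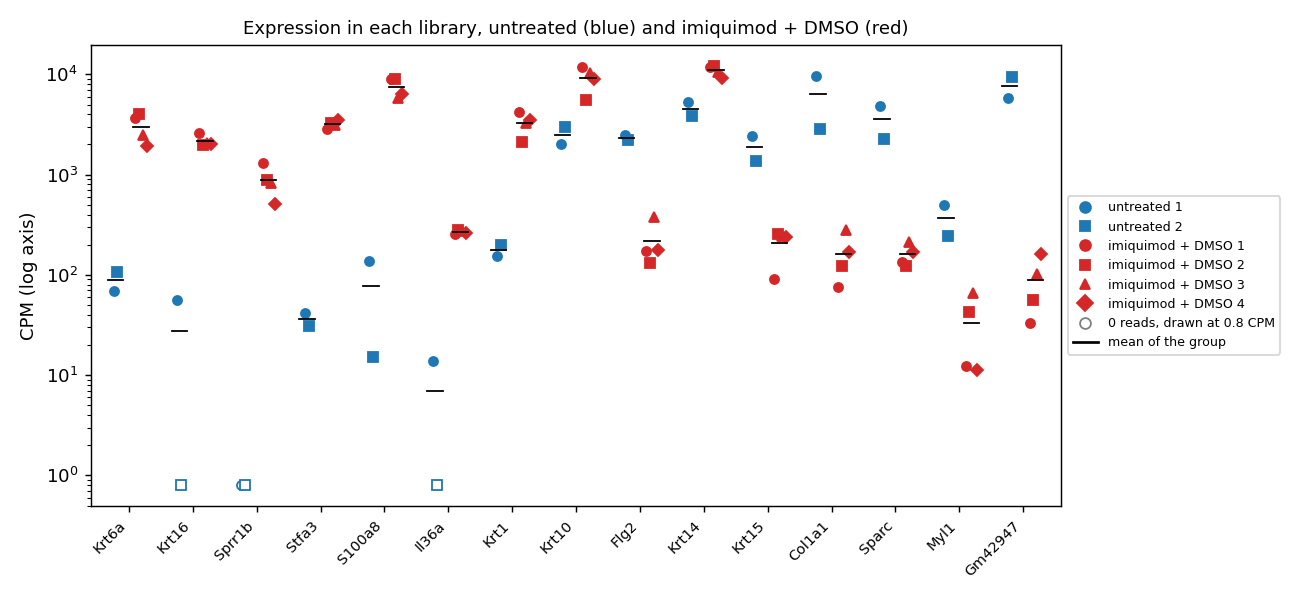
CPM (log axis) of 15 genes in each of the 6 libraries, with untreated libraries in blue, treated libraries in red, a black line at each group mean and open symbols for 0 reads. The groups do not overlap for any of the 15 genes, with Krt6a to Krt14 except Flg2 higher and Flg2, Krt15, Col1a1, Sparc, Myl1 and Gm42947 lower in the treated libraries.

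All 6 Lce3 genes, late cornified envelope genes linked to barrier repair, had 0 reads in both untreated libraries. They could pass the filter only through the treated group, so their direction was fixed by that choice and the 6 calls higher are no support for it. Their summed level was 1245, 629.6, 845 and 438 CPM in treated libraries 1 to 4. Lce3e, Lce3f and Lce3c were at least 7.31-fold, 7.8-fold and 9.19-fold higher and kept their call without each library. Lce3a, Lce3b and Lce3d lost it without untreated library 1 (edgeR adjusted p = 0.0571, 0.0561 and 0.145). Lce3d also lost it without untreated library 2 (0.101) and without treated library 2 (0.0508) or 3 (0.0628). Of 14 tested Lce1 and Lce2 genes, the subset of normal cornification, 0 were higher and 1 was lower. Their summed level of 794 and 2359 CPM in untreated libraries overlapped that of 673 to 2686 CPM in treated ones, with treated library 2 the lowest. Their median log2 fold change was 0.40. The member called lower was Lce1m, from 83.6 and 153 CPM to between 24.2 and 36.8 CPM (-1.84 ± 0.51, edgeR adjusted p = 0.0151). It was not called without untreated library 2 (-1.20, 0.226). The difference between the subsets was not tested.

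Krt1 and Krt10, the keratins of the spinous layer, rose, as did part of the other early differentiation genes. Krt1 (chr15:101845426-101850794, minus strand) was at 153 and 199 CPM in untreated and at 4182, 2110, 3245 and 3521 CPM in treated libraries. All treated values lay above both untreated ones, with treated library 2 the lowest, and the log2 fold change was 4.22 ± 0.39 (edgeR adjusted p = 7.06e-08). Its partner Krt10 rose less, from 2005 and 3018 CPM to 11947, 5559, 10320 and 9100 CPM (1.88 ± 0.33, edgeR adjusted p = 0.000537), again with treated library 2 the lowest. In all, 9 of 17 tested members of this list were higher and 0 lower (median log2 fold change 1.43), and 5 kept their call without each library. Among them were Fabp5, an epidermal fatty acid binding protein (2.69 ± 0.35, and 3.46 without untreated library 1), and Lypd3, a membrane protein of suprabasal cells (2.59 ± 0.35). The calcium-binding protein Calm4, outside the lists, rose from 641 and 1164 CPM to between 2373 and 4576 CPM (2.02 ± 0.33, and 2.67 without untreated library 2).

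Granular-layer and envelope genes moved in both directions. The filaggrin-type protein Flg2 (chr3:93197278-93221391, plus strand) was at 2479 and 2206 CPM in untreated and at 175, 132, 382 and 177 CPM in treated libraries. The highest treated value lay far below both untreated ones, and the log2 fold change was -3.47 ± 0.30 (edgeR adjusted p = 2.83e-08). Repetin (Rptn, chr3:93393699-93399442, plus strand), a protein of the same fused S100 family, went the other way. It had 0 untreated reads and 499, 665, 772 and 769 CPM in treated libraries, at least 28.2-fold higher (edgeR adjusted p = 1.70e-07). Casp14, a protease of terminal differentiation, rose from 41.8 and 15.3 CPM to between 223 and 295 CPM (3.18 ± 0.51, and 4.21 without untreated library 1). The phospholipase Pla2g4e had 2 untreated reads and reached 202 to 283 CPM, a ratio of 15.1 (interval 4.16 to 125). Of 23 tested members of this list, 10 were higher and 2 lower (median 1.06), and 4 and 1 kept their call without each library.

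The enzymes that shed the cornified layer and the serpins of the epidermis were higher where they changed. Of 13 tested kallikreins and related genes, 8 were higher and 0 lower (median 2.21), and 6 kept their call without each library. Klk7, a chymotrypsin-like protease of desquamation, was at 167 and 260.4 CPM in untreated and at 1886, 1399, 1246 and 1011 CPM in treated libraries (2.71 ± 0.35, edgeR adjusted p = 1.69e-05). The summed level of the list was 1309 and 1777 CPM against 4473 to 6492 CPM, with no overlap. Klk13 had 0 untreated reads and 149 to 219.6 CPM, at least 9.07-fold higher, and Klk6 and Klk9 had ratios of 46.4 (interval 8.3 to 1835) and 26 (7.18 to 215). Among clade B serpins, 3 of 11 tested were higher (27.3%, against 9.41% of all tested genes). Serpinb3a had 0 untreated reads and 213 to 371 CPM, at least 15.1-fold higher, and may share reads with its close copies. Serpinb5 rose by 1.96 ± 0.38, or 2.68 without untreated library 2, and Serpinb2 by 2.36 ± 0.64, a call lost without untreated library 1 (1.62, edgeR adjusted p = 0.146) and 4.58 without untreated library 2.

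Cell contacts changed in a few members. Of the tested gap and tight junction genes 18.2% were called higher, and of the desmosome and adherens junction genes 23.1%. The share among all tested genes was 9.41%. The gap junction genes Gjb2 and Gja1 were the 2 called of 11 tested in their list, both higher and kept without each library. Gjb2, a connexin of stressed epidermis, had 1 untreated read and 646, 708, 338 and 298 CPM in treated libraries, a ratio of 75.7 (interval 13.6 to 2992). Gja1, the most widespread connexin, rose from 111 and 168 CPM to between 492 and 581 CPM (1.93 ± 0.33, edgeR adjusted p = 0.000346). Of 13 tested desmosome and adherens junction genes, 3 were higher and 0 lower (median 0.24). Jup, plakoglobin, rose by 1.83 ± 0.42 and by 2.60 without untreated library 1. The calls of Pkp1 (1.19 ± 0.32) and Dsg3 (1.26 ± 0.38) were lost without untreated library 2 for Pkp1 (1.08, edgeR adjusted p = 0.0508) and without untreated library 1 for Dsg3 (1.02, 0.147), and without untreated library 2 Dsg3 stood at 1.86.

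In the basal layer, 2 of 19 tested genes were higher (10.5%, near the 9.41% of all tested genes) and 5 lower (26.3%, against 8.60%; median -0.71), and 1 and 2 of these kept their call without each library. Krt15 (chr11:100131758-100135928, minus strand), a keratin of resting basal cells and hair follicle stem cells, was at 2423 and 1363 CPM in untreated and at 90.3, 258, 243 and 241 CPM in treated libraries. Treated library 1 was far below the other 3, which in turn lay below both untreated libraries (-3.23 ± 0.32, edgeR adjusted p = 2.51e-07). Dystonin (Dst), which ties keratin filaments to the basement membrane, fell from 2507 and 2129 CPM to between 334 and 588 CPM (-2.28 ± 0.24, edgeR adjusted p = 8.29e-07). Krt14 went the other way, from 5278 and 3845 CPM to between 9190 and 12238 CPM (1.26 ± 0.29, edgeR adjusted p = 0.00422). Col7a1, the collagen of anchoring fibrils, fell from 97.5 and 61.3 CPM to between 2.69 and 14 CPM (-2.98 ± 0.71, edgeR adjusted p = 0.00604). Its call was lost without untreated library 1 (-2.50, 0.152).

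**Figure D3:**
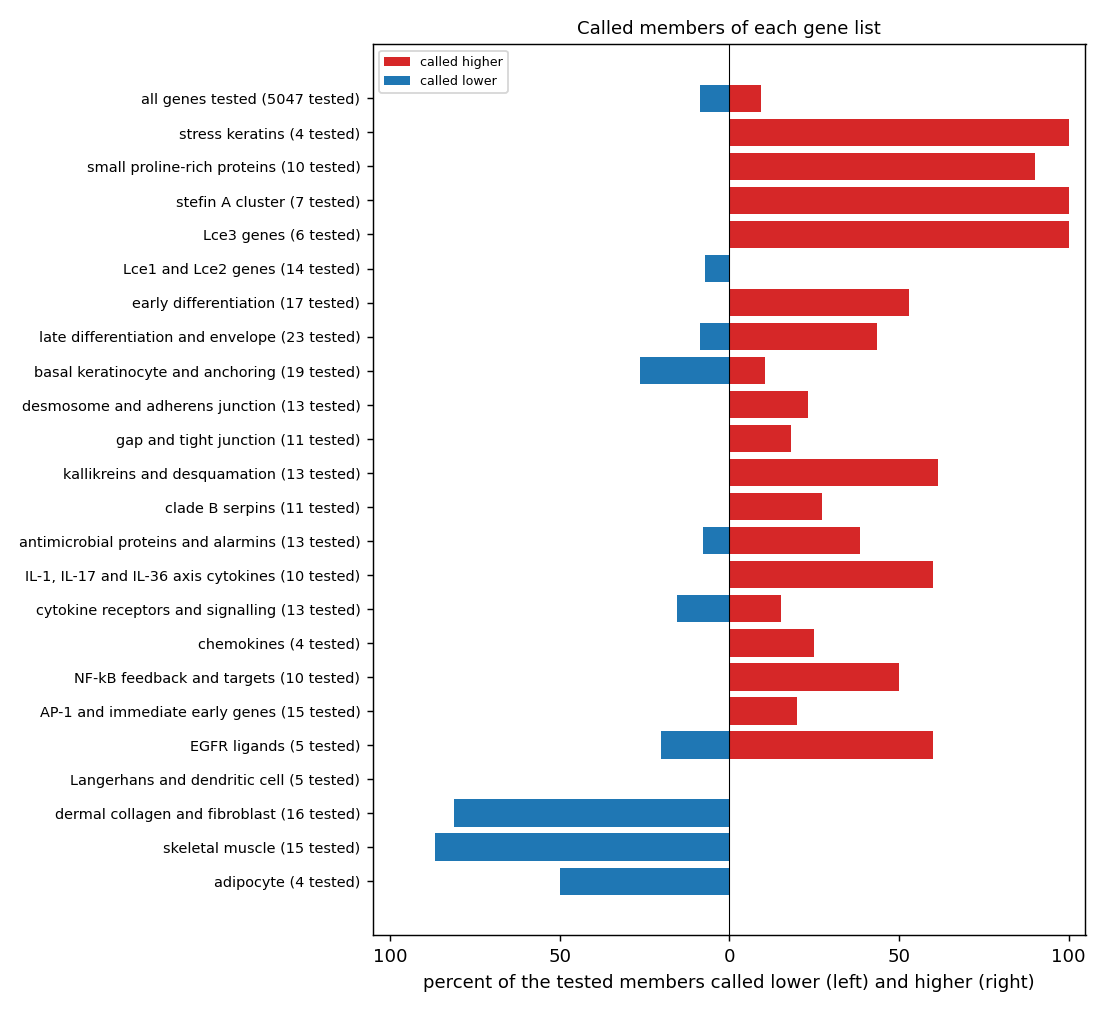
Percent of the tested members of each list called lower (blue, to the left) and higher (red, to the right), for the epidermal, inflammatory and cell type lists with 4 or more tested members, below the same for all 5047 tested genes. Stress keratin, stefin A and Lce3 lists are wholly red, and dermal and muscle lists wholly blue with 81.2% and 86.7% of members called. The bars of lists of 4 to 7 genes rest on few members.

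The calprotectin subunits were among the genes with the largest difference. S100a8 (chr3:90668978-90670035, plus strand) was at 139 and 15.3 CPM in untreated and at 9059, 9033, 5788 and 6331 CPM in treated libraries. S100a9 was at 83.6 and 30.6 CPM against 8553, 9173, 5197 and 7940 CPM. The untreated reads of both genes lay mostly in library 1, and treated library 3 was the lowest of its group for both. Their log2 fold changes were 6.56 ± 0.51 and 7.04 ± 0.49 (edgeR adjusted p = 4.93e-09 and 9.09e-10). Without untreated library 1 they were 9.03 and 8.07, and without untreated library 2 that of S100a8 was 5.92. Among other antimicrobial genes, Defb6 rose from 111 and 46 CPM to between 718 and 1081 CPM (3.39 ± 0.40, and 4.30 without untreated library 1). Defb3, an inducible beta-defensin, had 0 untreated reads and 59.2 to 91.9 CPM, at least 3.26-fold higher. Of 13 tested members of this list, 5 were higher and 1 lower. Genes not tested in it included Saa3 and S100a7a, with 0 untreated and 24 treated reads each. Their pooled treated level lay below the 21.9 CPM that 0 untreated reads allow, so no rise can be read from it.

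Some epidermal cytokines and NF-kB feedback genes were higher, and others did not pass the test. Il36a, which signals between keratinocytes in psoriasis-like skin, had 1 untreated read and 258, 283, 276 and 261 CPM in treated libraries, a ratio of 36.4 (interval 6.5 to 1440). Its treated values were close to each other. Il36b had 0 untreated reads and 53.8 to 101 CPM, at least 3.29-fold higher, and Il1rn, the antagonist of IL-1 receptors, rose by 2.17 ± 0.46 (edgeR adjusted p = 0.00251), or 2.82 without untreated library 2. In the list of IL-1, IL-17 and IL-36 axis cytokines, 6 of 10 tested genes were higher and 0 lower, and these 3 kept their call without each library. Il19, at 40.4 to 101 CPM against 0 untreated reads, lost its call without untreated library 1 (edgeR adjusted p = 0.0817). Stat3, the transcription factor below many cytokine receptors, rose from 111 and 153 CPM to between 301 and 431 CPM (1.57 ± 0.35, edgeR adjusted p = 0.0036). In its list of cytokine receptors and signalling genes, 2 of 13 tested were higher and 2 lower (15.4% each, against 9.41% and 8.60% of all tested genes). The lower ones were the receptor chains Il20ra (-3.34 ± 0.86, edgeR adjusted p = 0.0103) and Il6st (-0.97 ± 0.32, edgeR adjusted p = 0.0387). Il6st lost its call in 5 of the 6 fits without 1 library, with adjusted p up to 0.174 without untreated library 2. Il20ra did not pass the filter on low reads in 5 of those fits and kept its call without treated library 4. Among NF-kB feedback genes 5 of 10 tested were higher and 0 lower, and 3 kept their call without each library. Nfkbia, the inhibitor of NF-kB, rose from 279 and 536 CPM to between 851 and 1218 CPM (1.38 ± 0.30, and 2.08 without untreated library 2). Bcl3 had 0 untreated reads and 73.5 to 121 CPM, at least 3.98-fold higher, and Tnfaip2 a ratio of 15.3 (interval 2.73 to 609).

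Growth factor and immediate early genes showed fewer calls. Of the tested AP-1 and immediate early genes 20% were called higher, against 9.41% of all tested genes. Of 15 tested AP-1 and immediate early genes, 3 were higher (median 0.48), of which only Ier3, with 1 untreated read and 67.4 to 129 CPM (ratio 15.9, interval 2.83 to 631), kept its call without each library. Junb rose by 1.78 ± 0.55, a call lost without untreated library 1 (1.06, edgeR adjusted p = 0.212) and without treated library 1 (1.69, 0.0541) or 2 (1.67, 0.0617), and at 3.80 without untreated library 2. Of 5 tested ligands of the EGF receptor, Ereg, Epgn and Tgfa were higher and Btc was lower. Ereg, Epgn and Tgfa were below the filter's level in both untreated libraries, and Btc in every treated one. These directions were thus fixed by the filter, and the calls are no support for them. Ereg had 2 untreated reads and 109 to 149.8 CPM, a ratio of 9.55 (interval 2.62 to 79.2), and kept its call without each library. Btc fell from 167 and 46 CPM to between 5.62 and 22.1 CPM (-3.47 ± 0.70, edgeR adjusted p = 0.00166). Its call was lost without untreated library 1 (-2.12, 0.25), as was that of Epgn (0.0812), and that of Tgfa was lost without untreated library 2 (0.085).

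Immune cell markers were scarce at this depth, except in the neutrophil list. The 8 neutrophil markers in the table summed to 223 and 46 CPM in untreated and to 17753, 18289, 11062 and 14386 CPM in treated libraries, nearly all of it S100a8 and S100a9, which keratinocytes also make. Of the defining markers, the chemokine receptor Cxcr2 had 0 untreated reads and 25.7 to 79 CPM, at least 2.85-fold higher, a call lost without untreated library 1 (edgeR adjusted p = 0.101) or 2 (0.0642). Retnlg, Clec4e, Fpr2, Trem1 and Itgam had 0 untreated reads and 23, 10, 15, 18 and 41 treated reads, and were not tested. Over the deeper treated libraries 3 reads are 1.52 CPM, and over the untreated ones 21.9 CPM. The pooled treated levels of these 5 genes lay below that untreated bound, so no rise can be read from them. The neutrophil attractant Cxcl2 was at 29.6 to 177 CPM against 0 untreated reads, at least 3.77-fold higher, and lost its call without untreated library 1 (0.131) or 2 (0.089). The part of neutrophil RNA in the rise of S100a8 and S100a9 was not tested.

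Monocyte and macrophage markers summed to 1936 and 1608 CPM in untreated and to 983 to 1238 CPM in treated libraries, and most of that was Apoe. Apoe was at 1824 and 1440 CPM against 811 to 1067 CPM (-0.77 ± 0.24, edgeR adjusted p = 0.0267). It lost its call in 5 of the 6 fits without 1 library, with adjusted p from 0.0529 without treated library 3 to 0.244 without untreated library 1 (-0.48). Of the 3 tested members of this list, Apoe was the 1 called. Cd14, Adgre1, Cd68 and C1qa had 0 untreated and 19, 14, 12 and 12 treated reads and were not tested. Their pooled treated levels lay below the 21.9 CPM that 0 untreated reads allow. Of 5 tested Langerhans and dendritic cell genes, 0 were called. Among them Epcam was at 69.6 and 153 CPM against 139.9 to 179.7 CPM (log2 fold change 0.53 ± 0.40) and Cd74 at 209 and 107 CPM against 67.7 to 99.2 CPM (-0.97 ± 0.41, edgeR adjusted p = 0.1). Il7r, a receptor of lymphocytes, fell from 69.6 and 61.3 CPM to between 6.16 and 11.2 CPM (-3.02 ± 0.73), a call lost without untreated library 1 (edgeR adjusted p = 0.11) or 2 (0.0552). Il7r passed the filter only through the untreated group, so its fall was fixed by that choice. It was the 1 called of 2 tested T cell genes. The other, Thy1, was at 167 and 153 CPM against 70 to 83.1 CPM and was not called (-1.08 ± 0.39, edgeR adjusted p = 0.0558). Trbc2, a T cell receptor gene, had 1 untreated and 46 treated reads and was not tested. Of 20 interferon-stimulated genes listed, 3 were in the table and 0 were tested. No gene of the B and plasma cell list was in the table.

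Dermal collagen and matrix genes fell as a group. Col1a1 (chr11:94936224-94953042, plus strand), the main fibrillar collagen chain, was at 9734 and 2880 CPM in untreated and at 74.9, 124, 283 and 171 CPM in treated libraries. Untreated library 1 was far above library 2, and both were above every treated library. The log2 fold change was -5.34 ± 0.41 (edgeR adjusted p = 4.93e-09), and -4.11 without untreated library 1. Sparc, a collagen-binding matrix protein, fell from 4846 and 2267 CPM to between 124 and 213 CPM (-4.49 ± 0.29, edgeR adjusted p = 3.72e-10, and -3.73 without untreated library 1). Col1a2 fell from 2493 and 2037 CPM to between 54.4 and 179.7 CPM (-4.29 ± 0.32), and Col3a1 from 2075 and 996 CPM to between 79 and 169.5 CPM (-3.47 ± 0.30, and -2.73 without untreated library 1). Of 16 tested collagen and fibroblast genes, 13 were lower and 0 higher (median -3.22), and 7 kept their call without each library. The list summed to 21807 and 10201 CPM in untreated and to 1224 to 1694 CPM in treated libraries.

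Skeletal muscle genes fell alongside them. The list summed to 7450 and 6755 CPM in untreated and to 925, 1418, 2859 and 677 CPM in treated libraries, so on a ratio scale treated libraries 3 and 4 lay further from each other than library 3 did from the untreated ones. Of 15 tested, 13 were lower and 0 higher (median -2.45), and 9 kept their call without each library. The myosin genes Myh1 and Myl1 were at 459.5 and 536 CPM against 22.5 to 139.7 CPM (-2.85 ± 0.41, edgeR adjusted p = 5.63e-05) and at 501 and 245 CPM against 11.2 to 66.2 CPM (-3.73 ± 0.51, edgeR adjusted p = 3.18e-05). Without untreated library 1 the change of Myl1 was -3.01. Tpm2, a tropomyosin (-1.87 ± 0.28), and Tnnc2, fast troponin C (-3.27 ± 0.49, and -2.37 without untreated library 1), were called lower too. These falls in dermal and muscle RNA moved together with the rises in epidermal genes, and their part in those rises, through the share of epidermis in each sample, was not tested.

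**Figure D4:**
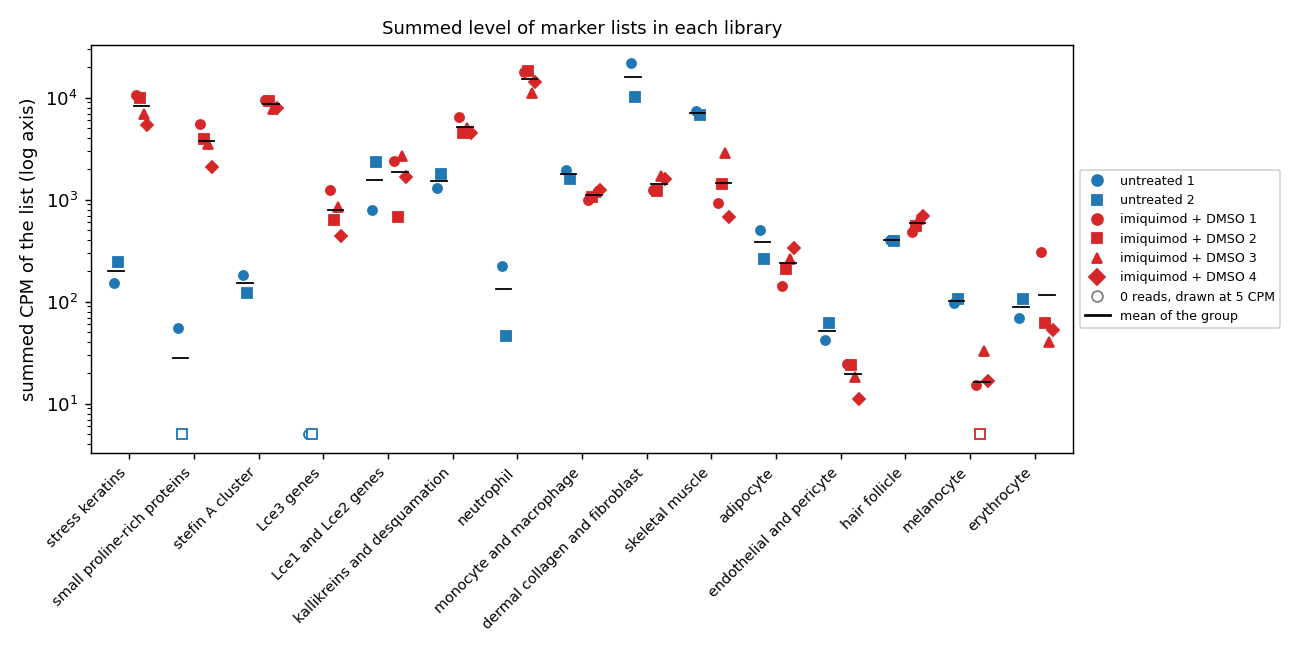
Summed CPM (log axis) of 15 marker lists in each of the 6 libraries, with untreated libraries in blue, treated in red, a black line at each group mean and open symbols for 0 reads. The epidermal stress lists, the neutrophil list and the hair follicle list lie higher in all 4 treated libraries. The dermal, muscle, endothelial, melanocyte, and monocyte and macrophage lists lie lower in all 4. The endothelial and melanocyte sums hold only 2 genes each, with 3 and 4 and with 7 and 7 reads in untreated libraries 1 and 2. Rgs5 and Dct, in these 2 lists, passed the filter only through the untreated group. Lce1 and Lce2, adipocyte and erythrocyte sums overlap.

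Single markers of several other cell types were lower, and others were not. Of the tested members, 2 of 4 adipocyte and 1 of 2 cartilage genes were called lower and 0 higher, and in the hair follicle list 1 of 3 was higher and 1 lower. Krt79, a hair follicle keratin, rose by 1.08 ± 0.32, a call lost without untreated library 1 (edgeR adjusted p = 0.0817). The lower follicle gene was the stem cell receptor Lgr6 (-1.72 ± 0.60), at -0.69 without untreated library 1 and with a call that held in 1 of the 6 fits without 1 library. Sox9, in the follicle and cartilage lists, was not called (0.01 ± 0.54). Dct, an enzyme of melanocytes, fell from 69.6 and 61.3 CPM to between 0 and 7.35 CPM (-3.78 ± 0.84, edgeR adjusted p = 0.00349), but did not pass the filter on low reads without treated library 1 or either untreated library. The pericyte gene Rgs5 (-3.03 ± 0.92), the adipocyte genes Fabp4 (-2.72 ± 0.60) and Car3 (-1.92 ± 0.61) and the cartilage collagen Col11a1 (-3.29 ± 0.67) were also called lower. Their calls were lost without untreated library 1 (edgeR adjusted p = 0.119, 0.146, 0.611 and 0.0584, with Fabp4 at -2.10 and Car3 at -0.78), that of Car3 also without treated library 1 (0.0691), and Rgs5 stood at -2.42 without treated library 1. Haemoglobin Hbb-bs was at 194 CPM in treated library 1 and at 27.9 to 76.6 CPM in the other 5 libraries, and was not called.

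Genes of growth and protein making rose in part. The proliferation marker Mki67 rose from 125 and 76.6 CPM to between 264 and 295 CPM (1.45 ± 0.37, edgeR adjusted p = 0.00901). The S and G2 phase cyclin Ccna2 had 0 untreated reads and 56.2 to 80.7 CPM, at least 3.15-fold higher, and the ribonucleotide reductase gene Rrm1 a ratio of 9.62 (interval 2.64 to 79.8). Cyclin D2, Ccnd2, was the exception with the smallest p, from 1114 and 919 CPM to between 283 and 331 CPM (-1.72 ± 0.23, edgeR adjusted p = 2.22e-05). Of 23 tested cell cycle genes 7 were higher and 2 lower (30.4% and 8.7%, against 9.41% and 8.60% of all tested genes). Of 14 tested DNA replication genes 4 were higher (28.6%) and 0 lower. Those 4 were Rrm1, with 2 untreated reads, and the helicase subunits Mcm4, Mcm5 and Mcm6, with 0. These 4 and Ccna2 were below the filter's level in both untreated libraries. Their direction was thus fixed by the filter, and their calls are no support for it. Without untreated library 1, Mcm4, Mcm5, Mcm6 and the mitotic kinase Cdk1 lost their call (edgeR adjusted p = 0.116, 0.0882, 0.0817 and 0.0765), and without untreated library 2 so did Mcm4 (0.076) and Mcm5 (0.0542).

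For translation and folding, most tested members did not pass. Of 28 translation factors and tRNA synthetases, 5 were higher (17.9%, against 9.41% of all tested genes) and 0 lower. Among them were Eif5a, which helps ribosomes elongate (41.8 and 46 CPM against 236 to 426 CPM, 2.77 ± 0.51), and Eif2s2 (1.34 ± 0.31). Of 17 genes of the unfolded protein response 6 were higher and 1 lower (35.3% and 5.88%, against 9.41% and 8.60% of all tested genes). P4hb, a protein disulfide isomerase, rose from 83.6 and 76.6 CPM to between 353 and 406 CPM (2.22 ± 0.37, edgeR adjusted p = 0.000289). Manf, a stress factor of the endoplasmic reticulum, had 0 untreated reads and 47.7 to 91.9 CPM, at least 3.45-fold higher. Of 76 tested cytosolic ribosomal protein genes, 8 were higher (10.5%, near the 9.41% of all tested genes) and 3 lower (3.95%, against 8.60%). Of these calls, 1 and 0 were kept without each library. The number of higher calls changed strongly with which untreated library was left out.

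In energy and redox metabolism, 12 of 77 tested nuclear genes of the respiratory chain were higher and 2 lower (15.6% and 2.6%, against 9.41% and 8.60% of all tested genes; median 0.98). Only Atp5g3, a subunit of ATP synthase, kept its call without each library, at 139 and 138 CPM against 806, 788, 537 and 570.0 CPM (2.29 ± 0.35, edgeR adjusted p = 0.000105). Of 6 tested messenger RNAs encoded in the mitochondrion 0 were called. Of 13 tested genes of glycolysis and glucose uptake 4 were higher and 1 lower (30.8% and 7.69%). The lower one was Pfkm, a phosphofructokinase (-3.32 ± 0.99, edgeR adjusted p = 0.0228), whose call was lost without untreated library 1 (0.11) or 2 (0.165). Ldha, which makes lactate, rose from 389.9 and 214 CPM to between 713 and 1066 CPM (1.55 ± 0.31, and 2.17 without untreated library 1). Hif1a, the oxygen-responsive transcription factor, rose by 1.94 ± 0.40 (edgeR adjusted p = 0.00205). Slc7a11, the cystine importer that feeds glutathione synthesis, had 0 untreated reads and 251, 242, 187 and 244 CPM in treated libraries, at least 10.9-fold higher (edgeR adjusted p = 2.46e-05). Gsta4, a glutathione transferase, was at least 4.81-fold higher, and Gpx1, a glutathione peroxidase, rose by 1.81 ± 0.39, or 2.84 without untreated library 1.

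Lipid genes moved in both directions. Scd1, the desaturase that is abundant in sebaceous glands, was at 7715 and 5361 CPM in untreated and at 1047, 1932, 2293 and 2372 CPM in treated libraries. Treated library 1 was the lowest, and the groups did not overlap (-1.78 ± 0.29, edgeR adjusted p = 0.000179). The cholesterol synthesis genes Sqle and Hmgcs1 rose, Sqle from 55.7 and 30.6 CPM to between 211 and 268 CPM (2.40 ± 0.47, and 3.02 without untreated library 1) and Hmgcs1 by 1.36 ± 0.28. Of 21 tested genes of cholesterol synthesis 5 were higher and 1 lower (23.8% and 4.76%). Of 20 tested fatty acid and sebaceous genes 4 were higher and 3 lower (20% and 15%). Among all tested genes the shares were 9.41% and 8.60%. Alox8, a lipoxygenase of inflamed epidermis, had 0 untreated reads and 324, 118, 162 and 160.0 CPM, at least 10.7-fold higher (edgeR adjusted p = 0.000871). Degs1, which desaturates ceramides, rose by 1.63 ± 0.37 (edgeR adjusted p = 0.00381). Of 12 tested sodium transport genes 2 were higher and 2 lower (16.7% each).

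Outside the lists, the higher genes with the smallest p included Chil1, a chitinase-like protein (3 untreated reads, 369 to 825 CPM, ratio 29.7, interval 10.1 to 144), and Gk, glycerol kinase (1 untreated read, 232 to 439 CPM, ratio 46.5, interval 8.31 to 1838). Ehf, an epithelial transcription factor, rose from 111 and 61.3 CPM to between 507 and 649 CPM (2.66 ± 0.37, and 3.28 without untreated library 1). Blmh, a protease that breaks down filaggrin products, rose from 167 and 123 CPM to between 640.1 and 1045 CPM (2.47 ± 0.35). Slc5a1, a sodium-coupled glucose carrier, had 2 untreated reads and 136 to 272 CPM (ratio 15.7, interval 4.33 to 130.3). The 12 genes so named, which also include Calm4, Lgalsl, Mal2, Anxa1, Plbd1, Nme1 and Urah, all kept their call without each library. Without untreated library 2 the change of Anxa1 was 3.37 in place of 2.33 and that of Nme1 4.14 in place of 2.93.

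The 12 lower genes outside the lists with the smallest p also include Kif21a, Ahnak2, Mef2c, Cyp2b19 and Golim4, with log2 fold changes from -3.39 (Mef2c) to -2.16 (Kif21a). Cyp2b19 stood at -2.87, and at -2.09 without untreated library 1, and Golim4 at -2.18, and at -1.38 without untreated library 2. Pik3r1, the regulatory subunit of PI3-kinase, fell from 641 and 475 CPM to between 47.2 and 95.6 CPM (-2.96 ± 0.32, edgeR adjusted p = 8.29e-07). Sema3d, a secreted guidance protein, fell from 668 and 505 CPM to between 49.3 and 99.2 CPM (-3.24 ± 0.31). Pnisr, a protein of splicing speckles, fell from 822 and 505 CPM to between 96.5 and 151 CPM (-2.43 ± 0.28). Dido1, a chromatin protein, was at 320.3 and 322 CPM against 50.3 to 59.2 CPM (-2.58 ± 0.33). Zbtb16, a transcription factor, was at 97.5 and 91.9 CPM in untreated libraries and had 3 reads in treated library 1 and 0 in the other 3 treated libraries (-5.71 ± 0.85, edgeR adjusted p = 8.42e-05). It did not pass the filter on low reads without treated library 1 or either untreated library. The non-coding RNA Meg3 went from 153 and 91.9 CPM to between 2.81 and 7.18 CPM (-4.42 ± 0.65), and the small nucleolar RNA Snord13 from 1894 and 888 CPM to between 143 and 331 CPM (-2.44 ± 0.31, and -1.68 without untreated library 1).

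The nuclear RNA Malat1, singled out after its values were seen, was at 22824 and 22578 CPM in untreated and at 5154, 8802, 9474 and 11893 CPM in treated libraries (-1.36 ± 0.30, edgeR adjusted p = 0.00334), and kept its call without each library. Its neighbour Neat1 was at 738 and 475 CPM against 258 to 474 CPM and was not called (-0.70 ± 0.29, edgeR adjusted p = 0.0896). Ribosomal RNA of the nucleus (Rn18s-rs5) differed between the untreated libraries, at 55437 and 128436 CPM, and stood at 37912 to 54881 CPM in treated ones (-1.02 ± 0.35, edgeR adjusted p = 0.0473). Its call was lost without untreated library 2 (-0.13, 0.83) and without treated library 1 (0.0965), 2 (0.0609), 3 (0.166) or 4 (0.0999). The mitochondrial ribosomal RNAs mt-Rnr1 (0.75 ± 0.32) and mt-Rnr2 (-0.76 ± 0.37) were not called (edgeR adjusted p = 0.103 and 0.156).

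The smallest p of all tested genes belonged to Gm42947, an unnamed long non-coding RNA (chr3:156040102-156045856, minus strand, mm10), which was singled out after its values were seen. It was at 5849 and 9390 CPM in untreated and at 32.8, 56.5, 103 and 160.0 CPM in treated libraries. Both untreated values lay far above every treated one. The log2 fold change was -6.52 ± 0.40 (edgeR adjusted p = 2.67e-10). In the authors' deposited table the value for Gm42947, turned to the same direction, was -5.81. The counting is not stated to use strand, so reads of an overlapping or antisense gene could not be told apart from its own.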

How the data were processed

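RNA was measured by 3′ messenger RNA sequencing from 500 ng of RNA with molecular identifiers, per the labels' protocols; no source says whether duplicate identifiers were collapsed, and intervals cover counting error only. STAR, featureCounts and DESeq2 were used with mm10, per the submitters' processing notes, without versions in the sources used here. The authors deposited the untreated and DMSO libraries as log2 values, variance-stabilised per the file's name. They also deposited a table of mean signal, log2 fold change, Wald score and p-value, coded as untreated minus DMSO and turned round here. A deposited table of counts holds 61533 human and 0 mouse identifiers and was not used.

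The log2 values were inverted to reads: all values (100%) were whole to within 0.001 reads, gene means equalled the deposited mean signal for 9820 of 9820 genes, and 39116 of 39116 DMSO values were equal in the study's other table. Genes with a total under 10 reads were not in the table. edgeR 4.0.16 in R 4.3.3 fitted the 6 libraries with TMM scaling and no covariate (filterByExpr, at least 10 reads at the median depth and 15 in all); the common biological coefficient of variation was 0.191. CPM are counts per TMM-scaled library size of 1000000. SE is the size of the log2 fold change over the square root of the F statistic. DESeq2 1.42.0 and limma 3.58.1 gave alternatives. The fit was tested on simulated data. Coordinates are from GENCODE M21 (9739 of 9820 identifiers found, 9541 with the same symbol), and promoters from RefSeq, matched by symbol for 3993 of 5047 tested genes.

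The members and gene lists were chosen with earlier results of these data known. Genes were named by a rule: the 4 markers Krt6a, Stfa3, Krt1 and Col1a1 and ribosomal RNA, up to 4 called members per list by smallest p, and 12 higher and 12 lower genes outside the lists. Gm42947, Malat1, Neat1, Xist and Ddx3y were added after their values were seen.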

Additional observations from a re-analysis of the deposited data

Results flagged for a closer look

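Values within the treated group (n = 4) were compared for a single library standing apart, by the gap to its nearest neighbour over the group's range. Of 245 groups of values looked at, 16 passed, and chance alone flags about 1 in 20. Treated library 1 was the deepest, with 935840 reads against 259301 to 360938 in the other 3.

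Library 1 stood apart upward for Krt16 (2602 against 1964 to 2065 CPM), Eif5a (426 against 236 to 261), Ndufa4 (400.3 against 161 to 176), Zbtb16 (3.08 against 0) and Hbb-bs (194 against 29.4 to 39.3). It also did so for the summed erythrocyte genes (307 against 40.4 to 61.9 CPM) and proteasome genes (5946 against 5489 to 5527 CPM). It stood apart downward for Krt15 (90.3 against 241 to 258 CPM) and Col3a1 (79 against 162 to 169.5 CPM). Library 2 was high for Pla2g4e (283 against 202 to 213 CPM). Library 3 was high for Btc (22.1 against 5.62 to 8.07 CPM) and low for Slc7a11 (187 against 242 to 251 CPM). Library 4 was high for Fabp4 (28.1 against 12.3 to 14.7 CPM) and low for Ier3 (67.4 against 121 to 129 CPM) and Pdia6 (138 against 194 to 200.1 CPM). For Zbtb16, Btc, Fabp4 and Hbb-bs these levels rest on few reads.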

How the results depend on the processing

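The count of higher genes (475) became 313 with DESeq2, 1083 with limma on the deposited log2 values, 727 with no filter and 296 with every library thinned to the shallowest, where 258 lower genes were left of 434. limma and the fit with no filter moved the share of calls that were higher from 52.3% to 70.8% and 68.1%. With DESeq2 it was 42.8% (313 higher, 419 lower) and with scaling by library totals without ribosomal RNA 46.5% (416 and 479). Of the original higher and lower calls, limma kept 473 and 375, and DESeq2 312 and 407. Over the fits that each left out 1 library, higher genes ranged from 267 to 503 and lower genes from 206 to 391, the lowest without untreated library 1. Scaling by library totals moved the median log2 fold change by 0.14, and no named gene reversed under any alternative run. The cause of these shifts was not tested, beside the fewer reads in the thinned libraries and the fewer libraries in the others.

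The groups share replicate numbers 1 and 2, and a replicate block left 182 higher and 165 lower genes, with 180 and 161 of the original calls. Deviations of same-numbered libraries from their group mean correlated at -0.171 and -0.0629 over 2523 genes. With only 2 untreated libraries, their deviations mirror each other, so these values cannot tell whether same-numbered libraries were paired. The block ended the call of 48 of the genes that the rule names.

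Depth limits the comparison on the untreated side, where 1 read is worth 13.9 to 15.3 CPM and 34.4 CPM was the lowest treated level called higher against 0 reads.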
